A study of Mus musculus with 72 samples.

Results

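The collagen gene family was followed across 6 tissues of mice with EGFR-driven lung tumours. Its members were the protein-coding genes of GENCODE M21 whose symbols consist of Col, a type number, the letter a and a chain number, and that stand in the tables of all 6 tissues. The rule uses no measured value and gave 44 of the 36047 genes in the tables. Collagens are triple helices of chains in which glycine leads each short triplet of residues. Fibrillar collagens (types I, II, III, V, XI, XXIV and XXVII) give tissues their tensile strength, type IV collagens form the network of basement membranes, type VI forms beaded filaments, and type VII anchors basement membranes to the stroma below. The fibril-associated collagens (FACITs) sit on fibril surfaces, the multiplexins XV and XVIII belong to basement membrane zones, and the remaining members are short-chain network, transmembrane or unclassified collagens. Lung and kidney are known for their basement membranes, in which the alpha 3, alpha 4 and alpha 5 chains of type IV build the filtration barrier of the glomerulus and part of the alveolar wall.

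All mice carried the EGFR DEL19 transgene and had received doxycycline for 25 days, after which lung tumours were checked by micro-CT. They were then injected intravenously with 10 mg/kg of a genetic circuit every 2 days, 7 injections in all, and tissues were taken at day 14. The CMV-GE11-siRE circuit encodes a small interfering RNA against EGFR together with GE11, a peptide that binds EGFR, the CMV-siRE circuit encodes the same RNA without the peptide, and the CMV-scrR circuit encodes a scrambled control RNA. RNA of the lung tumours and of lung, spleen, thymus, liver and kidney was sequenced in 4 libraries per tissue and circuit, 72 libraries in all. The labels do not give the promoter or cell type that drives the transgene, the age or sex of the mice, or whether the 4 libraries of a group came from 4 animals, so p-values measure only the spread between these libraries.

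The deposited values are gene counts divided by size factors, scaled within each tissue, and are called values here. Column totals ran between 5866250 and 43814100 in tumours and between 16904900 and 21376100 in the organs, and 15523 to 21522 genes were above 0 in a library. The share of the column total from mitochondrial genes was 0.558 to 12.7% in the organs. In tumours it was 8.04 to 37.9% with CMV-GE11-siRE, 45.0 to 73.1% with CMV-siRE and 63.1 to 71.4% with CMV-scrR. CMV-GE11-siRE replicate 4 stood apart in kidney, at 3.69%, and in thymus, at 0.558%. The targeted gene, human EGFR, had values of 91.2, 79.8, 39.2 and 132 in CMV-GE11-siRE tumours, 890, 452, 718 and 1324 in CMV-siRE tumours, and 2767, 1992, 4025 and 3215 in CMV-scrR tumours. Ddx3y, a gene of the Y chromosome, was between 330 and 422 in 4 tumour libraries (1 CMV-GE11-siRE, 2 CMV-siRE and 1 CMV-scrR) and at most 9.59 in the other 8, and it was at most 22.9 in the 60 organ libraries. Organ labels fitted their markers, with 5 hepatocyte markers summing to a length-scaled level (TPM, explained with the levels) of at least 89198 in control livers and 5 tubule markers to at least 10601 in control kidneys.

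The repeat that defines the family could be read in the exons. Of 1917 internal coding exons of the 44 genes, 1224 (63.8%) had a length that is a multiple of 9 bases, which is the length of 1 glycine-led triplet of codons, against 14.3% of 158968 internal coding exons in 16950 protein-coding genes. In the 11 fibrillar genes the share was 83.9% and the longest unbroken run of triplets had a median of 338, whereas in the 6 type IV genes, whose helix is interrupted, the share was 47.2% and the median run 43.5. The exons below show the repeat in 3 members that recur in the results, the fibrillar chains of type III and type I. Each has 54 bases and 6 triplets, is given in GRCm38 on the plus strand, and has the codon of the glycine that leads each triplet in capitals. They are exon 6 of Col3a1 at chr1:45325360-45325413, exon 8 of Col1a2 at chr6:4515481-4515534 and exon 8 of Col1a1 at chr11:94939904-94939957.
Col3a1: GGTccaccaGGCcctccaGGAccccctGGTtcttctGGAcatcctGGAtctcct
Col1a2: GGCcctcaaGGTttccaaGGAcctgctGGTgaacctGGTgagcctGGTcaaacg
Col1a1: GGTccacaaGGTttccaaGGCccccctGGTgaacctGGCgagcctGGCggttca

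The type IV genes lie in head-to-head pairs. The starts of Col4a1 and Col4a2, on chromosome 8, are 21 bases apart on opposite strands, those of Col4a3 and Col4a4, on chromosome 1, are 72 bases apart, and those of Col4a5 and Col4a6, on chromosome X, are 1309 bases apart. The promoter windows of Col4a1 and Col4a2 are printed because these were the most abundant chains of the family in tumour and lung. Each window runs from 250 bases before to 50 bases after the RefSeq start in GRCm38.p6, at chr8:11312777-11313076 on the minus strand for Col4a1 and chr8:11312555-11312854 on the plus strand for Col4a2. They share 78 bases and have a GC content of 74.0% and 73.7%, against a median of 52.7% over all promoters of the table. Capitals mark matches on either strand to the CCAAT box (letters CCAAT), the GC box (letters GGGCGG) and the TATA box (letters TATAAA), which do not overlap here, and neither window holds a TATA box. RefSeq promoters were found for 35 of the 44 genes, with 38 windows. The GC box was in 60.5% of them, against 35.7% of 32851 promoters, the CCAAT box in 34.2% against 37.4%, and the TATA box in 13.2% against 13.6%. The letters are a description and not evidence of a bound factor.
Col4a1: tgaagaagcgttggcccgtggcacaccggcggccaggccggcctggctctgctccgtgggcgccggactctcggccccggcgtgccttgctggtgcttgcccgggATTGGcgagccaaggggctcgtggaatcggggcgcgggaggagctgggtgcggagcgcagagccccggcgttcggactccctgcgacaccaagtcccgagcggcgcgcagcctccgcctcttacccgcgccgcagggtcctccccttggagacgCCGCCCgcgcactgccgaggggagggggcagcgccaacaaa
Col4a2: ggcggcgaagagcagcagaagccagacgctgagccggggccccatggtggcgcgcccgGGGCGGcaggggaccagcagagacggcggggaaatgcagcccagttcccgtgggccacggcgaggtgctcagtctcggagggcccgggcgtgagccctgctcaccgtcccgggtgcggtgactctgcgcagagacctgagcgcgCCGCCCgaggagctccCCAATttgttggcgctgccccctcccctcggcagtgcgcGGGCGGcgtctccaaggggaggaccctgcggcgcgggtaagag

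Each organ had its own leading collagens. To compare chains with each other, values were divided by exon length and scaled to a common sum over all genes other than mitochondrial ones in each library (TPM). The tissue tables were normalized separately, so levels across tissues are descriptions of the CMV-scrR libraries with no test. Type IV chains made up 55.7% ± 9.69 of the summed collagen level in tumour, 46.0% ± 3.73 in lung and 55.9% ± 4.06 in kidney (SD, n = 4 each). Fibrillar chains were the leading class in spleen, at 40.8% ± 2.19. In liver the multiplexins took 71.2% ± 3.10, of which Col18a1, whose C-terminal fragment is endostatin, gave 69.6% of the whole. In thymus, type VI and VII chains took 30.2% ± 2.76, with Col6a1 alone at 17.1%. The 5 leading chains of a tissue held between 51.3% of the collagen level in thymus and 85.1% in liver.

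The 5 leading chains were Col4a1, Col4a2, Col6a1, Col3a1 and Col1a1 in both tumour and lung, with shares of 26.7, 23.7, 10.2, 8.18 and 4.59% in tumour and 19.9, 19.2, 10.7, 9.85 and 9.42% in lung. Such ranks depend on the length used, the union of annotated exons, which is 12426 bases for Col1a2 and 6563 for Col1a1. Before division by length, Col1a2 averaged 581 and Col1a1 343 in CMV-scrR tumours. In kidney they were Col18a1 (18.4%), Col4a1 (16.0%), Col4a2 (13.1%), Col4a4 (11.8%) and Col4a3 (11.7%), of which the last pair are chains of the glomerular basement membrane. In spleen they were Col4a1 (16.1%), Col1a1 (14.7%), Col4a2 (12.4%), Col1a2 (9.21%) and Col3a1 (9.17%). In liver, after Col18a1, came Col4a1 (4.75%), Col14a1 (3.78%), Col3a1 (3.71%) and Col4a2 (3.24%), and in thymus, after Col6a1, came Col4a1 (9.90%), Col15a1 (8.63%), Col6a2 (7.90%) and Col4a2 (7.82%).

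Between 19 members in tumour and 32 in lung reached 1 TPM in the control libraries. Lung was the tissue of highest mean level for 19 members, thymus for 12, kidney for 6, spleen for 4 and liver for 3, and tumour for none of the 44. In 17 of the 19 lung cases, 10 of the 12 thymus cases, 4 of the 6 kidney cases, 2 of the 3 liver cases and 1 of the 4 spleen cases the libraries of the leading tissue did not overlap those of the tissue next in order. Among genes of at least 1 TPM in their leading tissue, this held for 29 of 36 collagens (80.6%) and for 66.7% of 18498 genes.

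**Figure D1:**
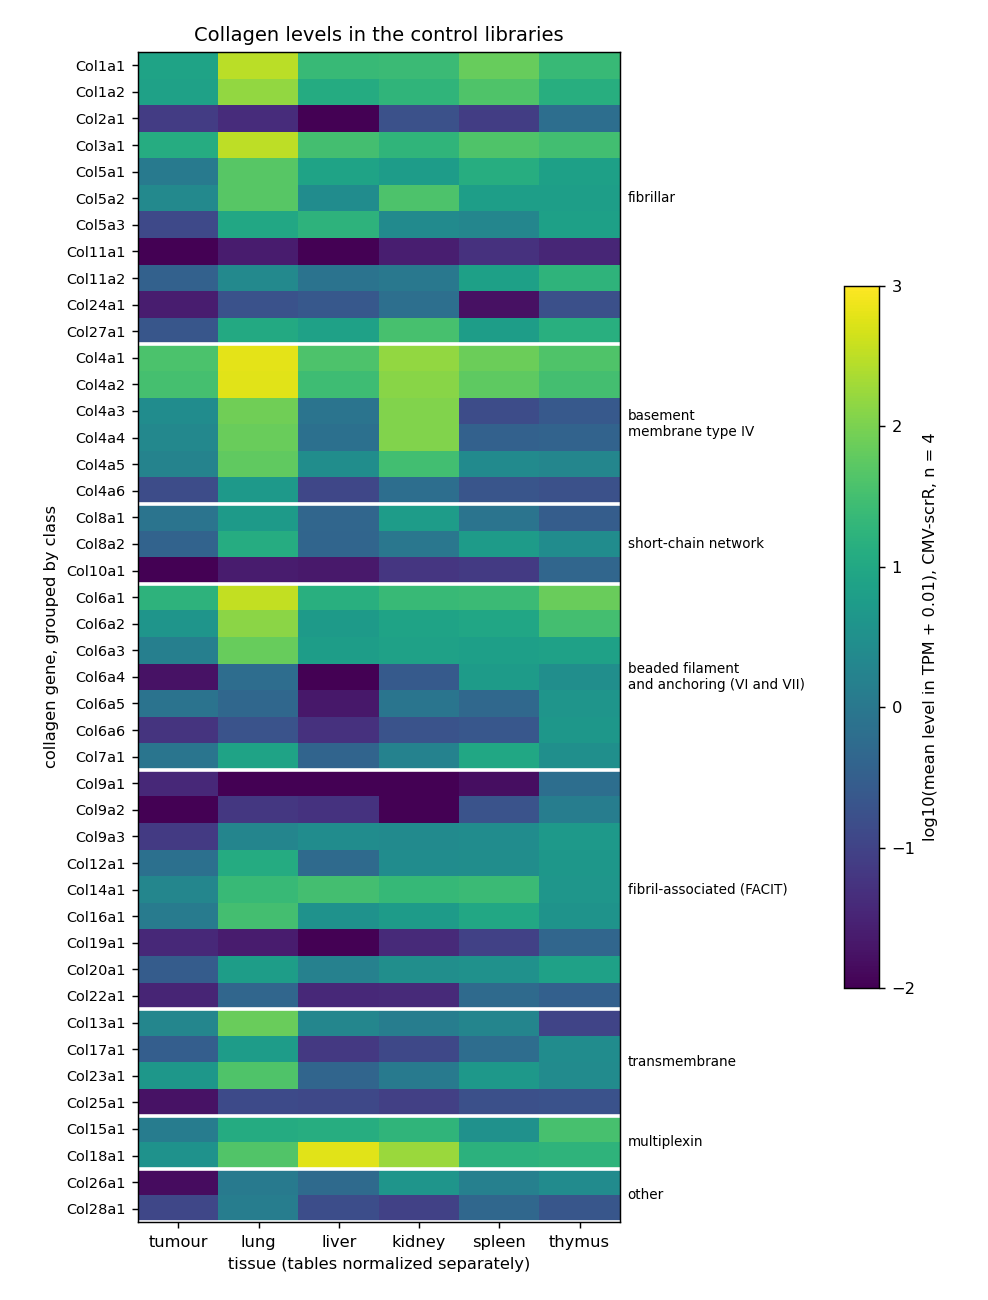
Mean level of the 44 collagen genes (rows, grouped by class) in the CMV-scrR libraries of the 6 tissues (columns, n = 4 each), coloured by log10 of TPM plus 0.01. Col4a1 and Col4a2 are high in lung at 633 and 607 TPM, Col18a1 is high in liver at 585 TPM, and Col10a1, Col11a1 and Col19a1 are low throughout.

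Among type IV chains, Col4a1 averaged 633 TPM in lung, 156 in kidney and 75.5 in spleen, and between 37.8 TPM (tumour) and 41.3 TPM (thymus) in the other 3 tissues. Col4a2, its partner in the common heterotrimer, averaged 607 TPM in lung, 128 in kidney and 58.2 in spleen, and between 27.7 TPM (liver) and 34.0 TPM (tumour) elsewhere. The chains of the specialised network had another distribution. Col4a3 averaged 114 TPM in kidney and 80.8 in lung, whose libraries overlapped, and at most 2.70 TPM elsewhere, and Col4a4 averaged 114 TPM in kidney, 71.8 in lung and 2.18 in tumour. Col4a5 was highest in lung at 60.1 TPM and next in kidney at 30.8, and Col4a6 was highest in lung at 5.15 and next in kidney at 0.625. Over the 12 libraries of a tissue, the TPM ratio of Col4a1 to Col4a2 averaged between 1.03 ± 0.0371 in lung and 1.45 ± 0.168 in liver (SD, n = 12 each), a narrow range beside the ratio of Col4a3 to Col4a1, which averaged 0.508 ± 0.249 in kidney and 0.132 ± 0.0271 in lung.

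Fibrillar chains were highest in lung. Col1a1 averaged 304 TPM there and 68.3 in spleen, Col1a2 averaged 158 and 42.7, and Col3a1 averaged 322 and 41.8, and tumour had the lowest mean of each at 8.06, 7.20 and 12.2 TPM. The ratio of Col1a1 to Col1a2, which assemble into type I collagen, averaged between 1.24 in tumour and 1.90 in liver. Its size depends on the exon lengths used. Col5a2 averaged 50.2 TPM in lung and 40.5 in kidney, with overlapping libraries. Col27a1 was highest in kidney at 34.4 TPM, Col11a2 in thymus at 17.9 and Col5a3 in liver at 16.8. Of the type VI chains, Col6a1, Col6a2 and Col6a3 were highest in lung at 341, 138 and 68.3 TPM, while Col6a6 was highest in thymus at 4.35 TPM and next in spleen at 0.213.

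The remaining classes also differed in place. The transmembrane collagen Col13a1 averaged 71.7 TPM in lung, 35.9 times its level in tumour, the tissue next in order, and Col23a1 averaged 42.3 TPM in lung and 4.54 in spleen. Col15a1 was highest in thymus at 35.6 TPM and next in kidney at 19.0. Col18a1 averaged 585 TPM in liver, 177 in kidney and 3.58 in tumour. The FACIT Col14a1 was close in liver (32.4 TPM) and spleen (26.1 TPM), with overlapping libraries. At the low end, Col9a1 was listed at 0 in all 12 liver libraries, and Col10a1, Col11a1 and Col19a1 passed the filter in no tissue. The filter asked for 4 or more of the 12 libraries of a tissue with a value of 10 or more. It was passed by 31 members in tumour, 38 in lung, 30 in liver, 32 in kidney, 37 in spleen and 36 in thymus, and by 26 in all 6 tissues.

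The circuits were compared on log2(value + 1) with limma over all genes of a tissue, with Benjamini-Hochberg adjustment over those genes and a threshold of 0.05. Differences below are on that log2 scale, given with their standard error in the model, and understate changes of genes near 0. Both comparisons with CMV-scrR use the same 4 control libraries in each tissue. In whole tissue, fewer cells of a type and less RNA per cell cannot be told apart.

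With the deposited values, tumours of mice given CMV-GE11-siRE had more RNA of the specialised basement membrane chains and of several low-level collagens than CMV-scrR tumours. Col8a1, Col12a1 and Col14a1 were lower, but not when libraries were scaled by column total. Of 31 members tested, 10 rose and 3 fell, which is 41.9% called, against 41.9% of the 14044 genes tested (50.5% at an unadjusted p under 0.05). The share of members that rose was 32.3%, against 22.1% of all genes, and the share that fell was 9.68%, against 19.8%. The members' share called therefore equals the background, and the 5 leading chains of the tumour, Col4a1, Col4a2, Col6a1, Col3a1 and Col1a1, did not pass the test.

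All 6 type IV chains were tested and 3 rose. Col4a4 had values of 1055, 664, 1587 and 801 in CMV-GE11-siRE tumours, 395, 319.6, 174 and 636 in CMV-siRE tumours, and 184, 153, 142 and 194 in CMV-scrR tumours. Every CMV-GE11-siRE library lay above every library of both other circuits, and the difference from CMV-scrR was 2.53 ± 0.35 (adjusted p = 5.08e-04). Col4a5, the X-linked chain of that network, had 375, 274, 410.4 and 355 in CMV-GE11-siRE tumours, 207, 147, 103 and 157 in CMV-siRE tumours, and 76.4, 57.1, 78.3 and 138 in CMV-scrR tumours. It too had no overlap between CMV-GE11-siRE and either other circuit, with a difference from CMV-scrR of 2.06 ± 0.29 (adjusted p = 5.17e-04). Col4a3 had 565, 281, 664 and 323 in CMV-GE11-siRE tumours, 213, 261, 377 and 265 in CMV-siRE tumours, and 220.3, 157, 172 and 245 in CMV-scrR tumours, a difference from CMV-scrR of 1.13 ± 0.29 (adjusted p = 0.00784) with no overlap between these 2 circuits. On Col4a3, 563 bases or 5.65% of the exons overlap C430014B12Rik on the other strand, and use of strand in counting is not given in the sources used here, so reads of these genes cannot be told apart.

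The abundant pair did not pass. Col4a1 had 3300.2, 2205, 2151 and 1742 in CMV-GE11-siRE tumours, 2609, 1776, 978 and 3047 in CMV-siRE tumours, and 1629.7, 2216, 2616 and 1763 in CMV-scrR tumours. The groups overlapped, and the difference of CMV-GE11-siRE from CMV-scrR was 0.18 ± 0.32 (adjusted p = 0.684). Col4a2 gave 0.37 ± 0.37 (adjusted p = 0.444) and Col4a6, at values of 21.3 or less, gave 0.90 ± 0.83 (adjusted p = 0.401).

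**Figure D2:**
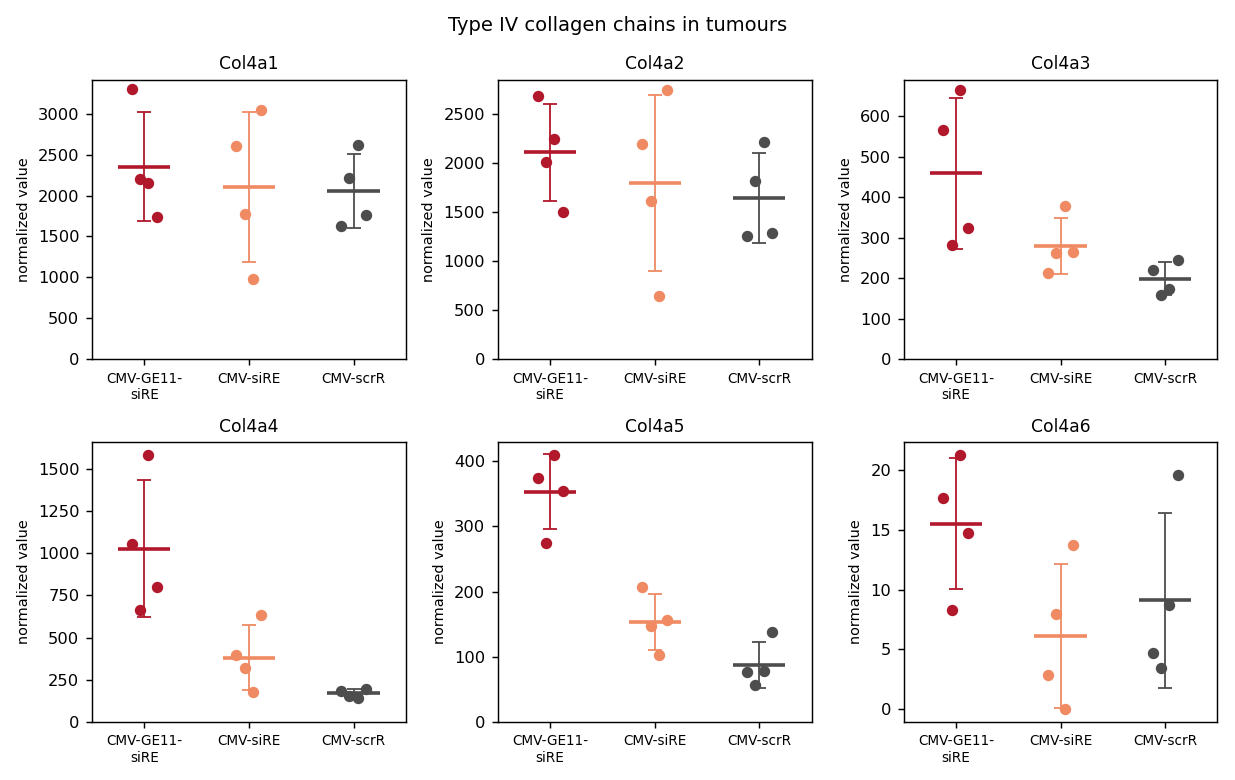
Normalized value of Col4a1 to Col4a6 in each tumour library (points) by circuit, CMV-GE11-siRE at the left, with the mean (bar) and SD (error bar, n = 4). Col4a3, Col4a4 and Col4a5 in CMV-GE11-siRE tumours lie above all CMV-scrR tumours, while Col4a1, Col4a2 and Col4a6 overlap.

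Of the fibrillar chains, 2 of 8 rose and none fell. Col11a2, a minor chain of cartilage fibrils, had 127, 95.5, 219.8 and 141 in CMV-GE11-siRE tumours, 208, 38.3, 18.0 and 82.1 in CMV-siRE tumours, and 42.7, 8.12, 6.54 and 4.56 in CMV-scrR tumours. It was higher in every CMV-GE11-siRE library than in every CMV-scrR library, by 3.62 ± 0.72 (adjusted p = 0.00196). Col27a1 had 100.5, 44.2, 108 and 171 in CMV-GE11-siRE tumours, 60.2, 23.7, 8.88 and 50.5 in CMV-siRE tumours, and 31.2, 13.5, 22.3 and 8.37 in CMV-scrR tumours, a difference from CMV-scrR of 2.43 ± 0.60 (adjusted p = 0.00645) with no overlap. The chains of type I and III collagen stood otherwise. Col1a1 differed by 0.23 ± 0.53 (adjusted p = 0.749), Col1a2 by 0.01 ± 0.52 (adjusted p = 0.990) and Col3a1 by -0.38 ± 0.48 (adjusted p = 0.549), and all 3 overlapped.

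Of the 5 FACITs that met the filter on low values, 3 rose and 2 fell. Col16a1 had 156, 178, 148 and 295 in CMV-GE11-siRE tumours, 212, 60.7, 34.9 and 116 in CMV-siRE tumours, and 48.0, 93.4, 39.6 and 20.2 in CMV-scrR tumours. Its difference from CMV-scrR was 2.07 ± 0.53 (adjusted p = 0.00769), without overlap. Col20a1 had 49.8, 49.0, 71.3 and 122 in CMV-GE11-siRE tumours, 132, 21.9, 7.72 and 58.5 in CMV-siRE tumours, and 10.2, 10.2, 9.57 and 11.1 in CMV-scrR tumours, a difference of 2.61 ± 0.66 (adjusted p = 0.00722). The controls of Col20a1 were tight, at 10.3 ± 0.637 (SD, n = 4), and none overlapped. Col9a3 met the filter only through the 4 CMV-GE11-siRE tumours, with 0 libraries of either other circuit at 10 or more, so its place among the genes that rose follows in part from the filter. It was low, at 12.8 ± 2.57 in CMV-GE11-siRE tumours and 2.06 ± 3.03 in CMV-scrR tumours, and its difference of 2.67 ± 0.93 (adjusted p = 0.0340) fell short of the threshold with a pseudocount of 0.1 (adjusted p = 0.0800) and without any 1 of the CMV-GE11-siRE libraries or CMV-scrR replicates 2 and 3. Col9a3 shares 234 bases, 6.07% of its exons, with Tcfl5 on the other strand.

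The FACITs that fell were Col12a1 and Col14a1, which bind type I fibrils. Col12a1 had 19.9, 33.1, 33.5 and 11.1 in CMV-GE11-siRE tumours, 14.2, 39.7, 9.89 and 16.9 in CMV-siRE tumours, and 62.4, 124, 50.4 and 39.8 in CMV-scrR tumours. All 4 CMV-GE11-siRE values lay below the controls, and the difference was -1.45 ± 0.51 (adjusted p = 0.0362). Col14a1 had 41.2, 17.6, 11.3 and 77.8 in CMV-GE11-siRE tumours, 97.3, 73.2, 34.5 and 74.8 in CMV-siRE tumours, and 77.4, 139, 77.0 and 84.8 in CMV-scrR tumours, a difference of -1.65 ± 0.52 (adjusted p = 0.0217) with overlapping groups. Col8a1, a short-chain collagen of vessel walls and of the cornea, fell to 13.5, 53.0, 3.58 and 5.94 in CMV-GE11-siRE tumours, with 9.65, 14.5, 18.5 and 43.3 in CMV-siRE tumours, against 42.1, 48.5, 44.3 and 50.3 in CMV-scrR tumours. Its groups overlapped, the difference was -1.91 ± 0.67 (adjusted p = 0.0356), and its call and that of Col12a1 were lost when low genes were not filtered out. Leaving out 1 library also ended these calls, for Col12a1 any of CMV-GE11-siRE replicates 1 and 4 and CMV-scrR replicates 1 and 2, for Col14a1 any of CMV-GE11-siRE replicates 2 and 3 and CMV-scrR replicate 2, and for Col8a1 any of CMV-GE11-siRE replicates 1, 3 and 4 and all CMV-scrR replicates. All 3 decreases turned to increases when libraries were scaled by column total, at 0.58 for Col12a1, 0.40 for Col14a1 and 0.05 for Col8a1.

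Col7a1, the anchoring fibril chain, had 237, 235, 449 and 422 in CMV-GE11-siRE tumours, 346, 183, 5.79 and 125 in CMV-siRE tumours, and 195, 21.5, 3.59 and 12.4 in CMV-scrR tumours. The CMV-GE11-siRE libraries lay above all controls, replicate 1 of CMV-scrR stood far from its group, and the difference was 3.81 ± 1.14 (adjusted p = 0.0170). Without CMV-scrR replicate 3 the adjusted p of Col7a1 was 0.0537. Col26a1, an emilin-related collagen known from testis and ovary, had 68.3, 31.5, 99.3 and 24.8 in CMV-GE11-siRE tumours, 76.1, 1.03, 0.863 and 13.1 in CMV-siRE tumours, and was listed at 0 in 3 CMV-scrR tumours and at 1.60 in the other. Its difference of 5.27 ± 1.05 (adjusted p = 0.00200) is not a measured fold, since it became 7.89 with a pseudocount of 0.1. Col26a1 had 4 CMV-GE11-siRE, 2 CMV-siRE and 0 CMV-scrR libraries at 10 or more. It met the filter only with the CMV-GE11-siRE libraries, so its place among the genes that rose follows in part from the filter. The 2 multiplexins and the 2 transmembrane collagens tested had no member that passed.

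The size of these differences depended on how tumour libraries were scaled. The median difference of all genes between CMV-GE11-siRE and CMV-scrR was 0.05 with the deposited values, 0.80 when scaled by the total without mitochondrial genes, and 2.11 when scaled by the column total. Scaling multiplies all genes of a library by the same factor, so positions relative to that median are fixed apart from the pseudocount. They are descriptions and no check of stability. The collagen median lay 0.36, 0.38 and 0.39 above the median of all genes. The same 20 members were above it and the same 11 below it under all 3 scalings. Relative to the median, Col4a4 stood at 2.48, 2.49 and 2.51, Col4a5 at 2.01, 2.02 and 2.03, Col4a3 at 1.08, 1.09 and 1.11, Col4a1 at 0.12, 0.14 and 0.16, and Col3a1 at -0.44, -0.42 and -0.40. Col8a1 was lower relative to it, between -1.96 and -2.06, as were Col14a1 at -1.70, -1.71 and -1.72 and Col12a1 at -1.50, -1.51 and -1.53.

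In absolute terms, the counts of calls moved. With the total without mitochondrial genes, 10 members were higher and 0 lower, against 43.2% of all genes higher and 4.34% lower, and with the column total 23 were higher and 0 lower, against 81% and 0.413%. The 10 members that rose with the deposited values were higher and called under all 3 scalings. Both other scalings moved all genes upward in this comparison, so this too is no check of stability. With the mitochondrial share as a covariate, limma called 0 of 31 members and 0 of 14044 genes (2 members and 653 genes at an unadjusted p under 0.05). The share was at most 37.9% in CMV-GE11-siRE and at least 63.1% in CMV-scrR tumours, so this fit cannot separate share from circuit. Of the 13 members called with the deposited values, 5 then turned direction, namely Col20a1 (-0.50), Col7a1 (-0.53), Col16a1 (-0.22), Col27a1 (-0.58) and Col8a1 (0.89), while Col4a5 stood at 1.16. With Ddx3y as a covariate, an alternative chosen after seeing the data, the same 13 members passed. The share of all genes called in that fit is not given here.

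**Figure D3:**
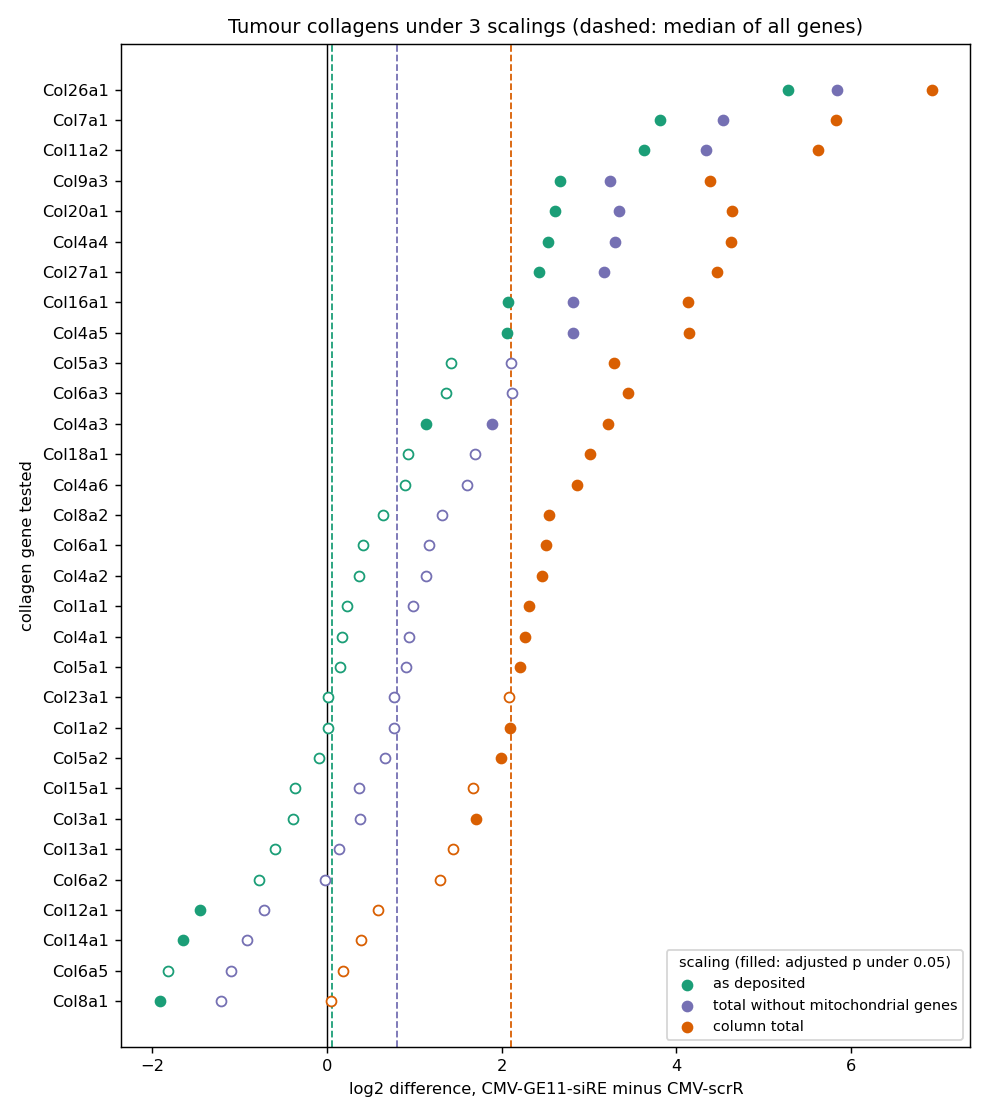
Difference between CMV-GE11-siRE and CMV-scrR tumours (log2, CMV-GE11-siRE minus CMV-scrR) for the 31 collagens tested under 3 scalings, filled where the adjusted p is under 0.05, with the median of all genes dashed. The dashed lines of the 3 scalings stand at 0.05, 0.80 and 2.11. Scaling moves all genes of a library alike apart from the pseudocount, so the order of the genes hardly changes.

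CMV-siRE tumours lay between the other circuits for several of these genes, but none of the comparisons with them passed for a member. Between CMV-siRE and CMV-scrR, limma called 0 of 31 members (8 at an unadjusted p under 0.05), against 0.256% of all genes called and 21.4% at an unadjusted p under 0.05. Col4a4 differed by 1.04 ± 0.35 (adjusted p = 0.121) and Col4a5 by 0.84 ± 0.29 (adjusted p = 0.128). Between CMV-GE11-siRE and CMV-siRE, limma called 0 of 31 members (7 at an unadjusted p under 0.05), against 0.0214% of all genes called and 26.2% unadjusted, and 28 of the 31 differences were above 0, against 52.4% of all genes. Col4a4 differed by 1.50 ± 0.35 and Col4a5 by 1.23 ± 0.29 (adjusted p = 0.0628 for both). In that comparison 4 members were higher and called when libraries were scaled without mitochondrial genes, against 13.2% of all genes, and 25 when scaled by column total, against 76.8%.

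No ratio between chains of a tumour passed in 12 two-sided exact permutation tests between circuits, each of 4 against 4 libraries, for which the smallest possible p is 0.0286. The lowest p was 0.0571, for Col3a1 over Col1a1 between CMV-siRE and CMV-scrR (difference -0.92 on the log2 scale, adjusted p = 0.343). Col4a3 over Col4a1 was 0.95 higher in CMV-GE11-siRE than in CMV-scrR tumours (exact permutation p = 0.0857). On the TPM scale the summed collagen level was 635 ± 170.0 in CMV-GE11-siRE tumours, 226 ± 154 in CMV-siRE tumours and 152 ± 86.9 in CMV-scrR tumours (SD, n = 4). These levels depend on the length-scaled sum to which each library was brought. Col4a1 averaged 2350 in CMV-GE11-siRE and 2056 in CMV-scrR tumours as values, but 141 and 37.8 as TPM. Type IV chains made up 58.1% ± 9.35 of the summed level in CMV-GE11-siRE, 58.6% ± 7.44 in CMV-siRE and 55.7% ± 9.69 in CMV-scrR tumours.

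Markers of other cell types also differed in level. The 6 alveolar type 2 markers, with surfactant protein C as the largest, summed to 224413, 135582, 145000 and 169633 TPM in CMV-GE11-siRE tumours, 163183, 18209, 11708.5 and 28726 TPM in CMV-siRE tumours, and 6127, 7605, 11116 and 9296.5 TPM in CMV-scrR tumours. Replicate 1 of CMV-siRE lay among the CMV-GE11-siRE libraries in this sum, as it did for Col26a1 and Col11a2, and for Col20a1 it was the highest of all 12. Fibroblast markers summed to 59.0 to 204 TPM in CMV-GE11-siRE tumours, 14.1 to 89.8 in CMV-siRE tumours and 32.0 to 311 in CMV-scrR tumours. Chondrocyte markers stayed at or under 2.05 TPM and markers of stratified epithelium at or under 2.34 TPM in every tumour library. The part of these markers and of the mitochondrial share in the collagen differences was not tested.

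Other genes of collagen assembly and basement membranes also differed between CMV-GE11-siRE and CMV-scrR tumours. The counts of each list stand against 22.1% of all genes that rose, 19.8% that fell and a median difference of 0.05. Of 20 procollagen modification and folding genes tested, 10 rose and none fell, with a median difference of 0.73. P4ha2, a subunit of prolyl 4-hydroxylase, was 722 in CMV-GE11-siRE and 178 in CMV-scrR tumours (2.06), P3h1, a prolyl 3-hydroxylase, differed by 1.52, and P4ha1 by 1.50. Of 16 basement membrane partners, 7 rose and 1 fell, with a median of 1.32. Lama5, a laminin chain of alveolar and glomerular basement membranes, was 2920 in CMV-GE11-siRE and 396 in CMV-scrR tumours (3.05), the proteoglycan Agrn differed by 2.72 and the laminin chain Lamb2 by 2.55.

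Of 12 fibril-associated matrix genes, none rose and 3 fell with the deposited values (median -0.92), against 22.1% of all genes that rose and 19.8% that fell. Those 3 were the small proteoglycans Ogn (57.9 in CMV-GE11-siRE and 1224 in CMV-scrR tumours, -3.51), Prelp (-1.84) and Bgn (-1.56). Scaled by column total, all 7 lists had medians above 0, from 1.14 in this list to 3.34 in the basement membrane partners. The median of all genes was then 2.11, so the fibril-associated list lay below it, as it did with the deposited values. In processing and cross-linking, 1 of 9 rose and 2 fell (median -0.40), with Bmp1, the procollagen C-proteinase, at 1937 in CMV-GE11-siRE and 201 in CMV-scrR tumours (3.47), its enhancer Pcolce2 at 44.6 and 696 (-3.31), and the lysyl oxidase Loxl2 at -1.68. In degradation, 2 of 13 rose and 3 fell (median -0.20), with the fibroblast protease Fap at 2.90, the inhibitor Timp4 at -3.73 and the gelatinase Mmp2 at -1.80. Fap was low, at 15.6 in CMV-GE11-siRE and 1.73 in CMV-scrR tumours, as was Timp4, at 1.62 and 34.1. Their differences depend on the pseudocount, and the libraries through which they met the filter are not given here. Of 8 receptors, 2 rose and 2 fell (median -0.48), with the integrin Itga10 at 3.17, the receptor kinase Ddr1 at 1.51 and the inhibitory receptor Lair1 at -1.50. Itga10 was also low in CMV-scrR tumours, at 5.89, against 42.2 in CMV-GE11-siRE tumours. Of 13 profibrotic signals, 2 rose and 5 fell (median -0.50), with the growth factors Pdgfc at -1.76, Tgfb3 at -1.49 and Pdgfd at -1.48. In both comparisons with CMV-siRE tumours, no gene of the 7 lists passed.

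In spleen, Col3a1 was lower with both EGFR circuits than with the control, Col1a1 and Col6a2 were lower with CMV-GE11-siRE and Col16a1 was lower with CMV-siRE. Of the 8 fibrillar chains tested, 2 fell with CMV-GE11-siRE and 1 with CMV-siRE, and Col5a1 differed by 0.17 ± 0.25 (adjusted p = 0.698) and 0.08 ± 0.25 (adjusted p = 0.895). With CMV-GE11-siRE, 0 of 37 members rose and 3 fell (8.11%, against 3.47% of all genes lower and 5.76% called), with 15 at an unadjusted p under 0.05 (24.5% of all genes). With CMV-siRE, 0 rose and 2 fell (5.41%, against 2.88% of all genes lower and 4.61% called), with 13 at an unadjusted p under 0.05 (20.9% of all genes). The medians of the 37 differences were -0.39 and -0.40, with medians of all genes of 0.01 and 0.00, and 28 and 27 members were below 0, against 49.3% and 49.5% of all genes.

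Col3a1 passed in both. It had values of 1801, 1812, 1385 and 1668 in CMV-GE11-siRE spleens, 1707, 2457, 1517 and 2045 in CMV-siRE spleens, and 3044, 2399, 2907 and 3137 in CMV-scrR spleens. The CMV-GE11-siRE libraries did not reach the controls, and 1 CMV-siRE library did. The differences were -0.79 ± 0.15 (adjusted p = 0.0128) with CMV-GE11-siRE and -0.59 ± 0.15 (adjusted p = 0.0339) with CMV-siRE. Col1a1 had 1924, 2064, 1575 and 1396 in CMV-GE11-siRE spleens, 1985, 2318, 1947 and 1856 in CMV-siRE spleens, and 3603, 2117, 3565 and 3306 in CMV-scrR spleens. Its CMV-GE11-siRE libraries lay below all controls, with a difference of -0.84 ± 0.17 (adjusted p = 0.0171), whereas the CMV-siRE difference of -0.61 ± 0.17 missed the threshold (adjusted p = 0.0555).

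Col6a2, a chain of beaded filaments, had 319, 354, 225 and 194 in CMV-GE11-siRE spleens, 299.6, 433, 231 and 316 in CMV-siRE spleens, and 637, 384, 592 and 484 in CMV-scrR spleens. It did not overlap between CMV-GE11-siRE and CMV-scrR (-0.95 ± 0.23, adjusted p = 0.0326), and the CMV-siRE difference was -0.72 ± 0.23 (adjusted p = 0.0924). Col16a1 had 298, 287, 390.2 and 338 in CMV-GE11-siRE spleens, 332, 282, 246 and 290.1 in CMV-siRE spleens, and 589, 416, 389 and 464 in CMV-scrR spleens. It fell with CMV-siRE (-0.68 ± 0.15, adjusted p = 0.0219), without overlap, while the CMV-GE11-siRE difference was -0.49 ± 0.15 (adjusted p = 0.0696). Between CMV-GE11-siRE and CMV-siRE spleens, limma called 0 of 37 members (1 at an unadjusted p under 0.05), against 0.112% of all genes called and 9.79% unadjusted.

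The spleen calls rested in part on single libraries. Replicate 2 of CMV-scrR was the lowest control for Col1a1, Col3a1 and Col6a2, and without it 9 members passed with CMV-GE11-siRE and 6 with CMV-siRE. For fits that leave out 1 library, the shares of all genes called are not given here, so these counts have no background beside them. Without CMV-scrR replicate 1, 1 member, Col3a1, passed with CMV-GE11-siRE and 0 with CMV-siRE, and without CMV-siRE replicate 3 none passed with CMV-siRE. Without CMV-GE11-siRE replicate 3, Col3a1 alone passed with CMV-GE11-siRE, and without replicate 2 of that circuit 5 members did. Col3a1 with CMV-GE11-siRE passed whichever library was left out, while with CMV-siRE it also failed without CMV-siRE replicate 1 or 4 or CMV-scrR replicate 3 or 4. Col6a2 failed without any 1 of CMV-GE11-siRE replicates 1, 3 and 4 and CMV-scrR replicates 1, 3 and 4, and Col16a1 with CMV-siRE also failed without CMV-siRE replicate 2. Fitted on the 8 libraries compared alone, neither Col6a2 with CMV-GE11-siRE nor Col3a1 with CMV-siRE passed, and Col3a1 with CMV-siRE did not pass under either other scaling. The 8 smooth muscle and pericyte markers summed to 391, 360.5, 348 and 245 TPM in CMV-GE11-siRE spleens, 359, 525, 296 and 416 TPM in CMV-siRE spleens, and 834, 364, 666 and 558 TPM in CMV-scrR spleens, with replicate 2 again the lowest control. Fibroblast markers summed to 83.4 to 121 TPM, 84.8 to 141 TPM and 87.8 to 107 TPM in the same order. The mitochondrial share was 1.99% ± 0.129, 2.13% ± 0.0928 and 1.66% ± 0.0734 (SD, n = 4). With it as a covariate limma called 0 of 37 members in both comparisons (7 with CMV-GE11-siRE and 3 with CMV-siRE at an unadjusted p under 0.05). The shares with both EGFR circuits lay above all control shares, so this fit cannot separate share from circuit. Hba-a1, a globin gene of red cells singled out after its values were seen, had 24621, 42747, 34013 and 23142 TPM in CMV-GE11-siRE spleens, 15114, 11571, 6244 and 9901 TPM in CMV-siRE spleens, and 41052, 49668, 39803 and 38263 TPM in CMV-scrR spleens. It was lower in every CMV-siRE library and in all CMV-GE11-siRE libraries but replicate 2 than in every control. The part of the muscle markers and of Hba-a1 in these differences was not tested.

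Other matrix genes of spleen fell too. The counts of each list stand against 3.47% of all genes that fell with CMV-GE11-siRE and 2.88% with CMV-siRE. In either direction, 5.76% and 4.61% of all genes were called. With CMV-GE11-siRE, 3 of 14 fibril-associated matrix genes fell and none rose, with Eln, the elastin gene, at 994 in CMV-GE11-siRE and 3215 in CMV-scrR spleens (-1.75), Fn1, fibronectin, at -0.73 and Sparc, a collagen-binding matricellular protein, at -0.63. With CMV-siRE the same 3 genes passed, with Eln at 877 in CMV-siRE and 3215 in CMV-scrR spleens (-1.89), Fn1 at -1.03 and Sparc at -0.55. In the other lists with CMV-GE11-siRE, 2 of 20 modification genes fell (P4ha2 at -0.75 and Plod3 at -0.72). So did 2 of 12 processing genes (Adamts14 at -1.07 and Adamts2 at -0.68) and 1 of 13 degradation genes (Mmp9 at -0.92). Of 16 basement membrane genes 1 fell (Agrn at -0.49). Of 12 profibrotic signals 5 fell, led by Ltbp2 at -1.20, Tgfb2 at -1.08 and Pdgfb at -0.68. With CMV-siRE, 2 of 12 processing genes fell (Loxl2 at -0.83 and Adamts2 at -0.73), as did Agrn at -0.68 and Ltbp2 at -1.26, and 2 of 13 degradation genes rose, Mmp3 at 1.47 and the inhibitor Timp1 at 1.41. None of the 9 receptors passed in either comparison, and no list had a gene that rose with CMV-GE11-siRE.

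In liver, Col13a1, a transmembrane collagen of cell junctions, was the 1 member that passed, of 30 tested (3.33%, against 4.23% of all genes called, 2.19% higher and 20.7% at an unadjusted p under 0.05). It had values of 90.4, 183, 109 and 237 in CMV-GE11-siRE livers, 93.0, 181, 133 and 104 in CMV-siRE livers, and 47.2, 40.4, 73.0 and 79.8 in CMV-scrR livers. No control library reached a library of the other circuits. The difference with CMV-GE11-siRE was 1.30 ± 0.32 (adjusted p = 0.0381) and with CMV-siRE 1.08 ± 0.32 (adjusted p = 0.0766). The call was lost when low genes were kept (adjusted p = 0.0546), with the 8 compared libraries alone (adjusted p = 0.0768), with the mitochondrial share as a covariate (adjusted p = 0.120), and without any 1 of CMV-GE11-siRE replicates 2 and 4, CMV-siRE replicate 3 and CMV-scrR replicates 1, 2 and 3. The 6 stellate cell markers summed to 30.7 to 61.8 TPM with CMV-GE11-siRE, 38.3 to 50.2 TPM with CMV-siRE and 27.7 to 38.6 TPM with CMV-scrR, and their part was not tested.

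Col18a1, the leading liver collagen, had 27148, 24177, 28184 and 21471 in CMV-GE11-siRE livers, 28026, 22821, 26892 and 24118 in CMV-siRE livers, and 27269, 28933, 24806 and 30380.3 in CMV-scrR livers, with overlapping groups. With CMV-siRE against CMV-scrR, limma called 0 of 30 members (5 at an unadjusted p under 0.05), against 4.04% of all genes called and 20% unadjusted, and between CMV-GE11-siRE and CMV-siRE 0 of 30 (3 unadjusted), against 0.0069% and 7.66%. Among the other matrix genes with CMV-siRE, 2 of 12 degradation genes rose, Timp1 (2.63) and the gelatinase Mmp9 (1.08). So did 1 of 8 collagen receptors, Itga1 (0.34), and 1 of 16 basement membrane partners, the linker Nid2 (0.55). No gene of the other lists passed, and 4.04% of all genes were called. With CMV-GE11-siRE, 1 of 19 modification genes fell, the lysyl hydroxylase Plod3 (-0.64), and no other listed gene passed, against 4.23% of all genes called.

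**Figure D4:**
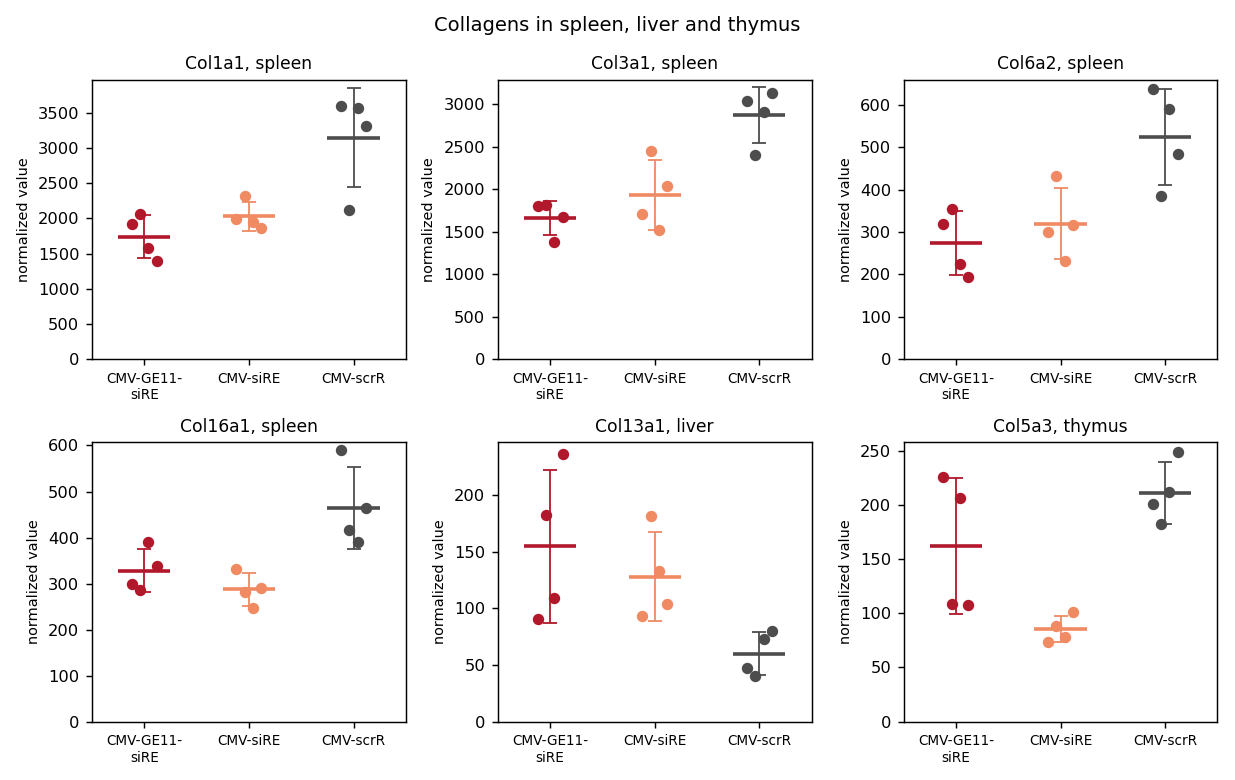
Normalized value in each library (points) of the organ collagens that passed a test, Col1a1, Col3a1, Col6a2 and Col16a1 in spleen and Col13a1 in liver, and of Col5a3 in thymus, by circuit with CMV-GE11-siRE at the left, mean (bar) and SD (error bar, n = 4). The Col1a1, Col3a1 and Col6a2 panels show 1 low control library, replicate 2, at 2117 for Col1a1, and the liver controls of Col13a1 lie between 40.4 and 79.8, below both other circuits.

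In kidney, the glomerular chains were lower with CMV-siRE and in a pair of CMV-GE11-siRE libraries, but no gene of the tissue passed the test. Limma called 0 of 32 members in each comparison and 0% of the 15105 genes tested. At an unadjusted p under 0.05 there were 3 members between CMV-GE11-siRE and CMV-scrR (8.06% of all genes), 3 between CMV-siRE and CMV-scrR (9.84%) and 10 between CMV-GE11-siRE and CMV-siRE (3.97%). With CMV-siRE, 29 of 32 differences from CMV-scrR were below 0, with a median of -0.46, against 51.0% of all genes and a median of -0.01. Between CMV-GE11-siRE and CMV-siRE, 25 of 32 were above 0, with a median of 0.36, against 45.6% of all genes and a median of -0.02.

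Col4a3 had values of 5305, 2313, 6332 and 786 in CMV-GE11-siRE kidneys, 2319.6, 2026, 2994 and 2124 in CMV-siRE kidneys, and 4787, 6247, 5001 and 6411 in CMV-scrR kidneys. Col4a4 had 5586, 3541, 5889 and 2893 in CMV-GE11-siRE kidneys, 3062, 3449, 3934 and 3062 in CMV-siRE kidneys, and 5633, 6134, 5724 and 6492 in CMV-scrR kidneys. Col4a5 had 901, 661, 1026 and 267 in CMV-GE11-siRE kidneys, 583, 717, 857 and 498 in CMV-siRE kidneys, and 949, 1104, 973.5 and 1075 in CMV-scrR kidneys. All 3 chains were lower in every CMV-siRE library than in every control, and CMV-GE11-siRE was split, with replicates 2 and 4 low and replicates 1 and 3 near the controls.

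The differences of CMV-siRE from CMV-scrR were -1.25 ± 0.50 for Col4a3 (adjusted p = 0.478), -0.83 ± 0.21 for Col4a4 (adjusted p = 0.307) and -0.65 ± 0.34 for Col4a5 (adjusted p = 0.541). Fitted on the 8 libraries alone, which leaves out the split CMV-GE11-siRE group, all 3 passed, with adjusted p of 0.00497, 0.00669 and 0.0403, against 7.24% of all genes. The clock-controlled gene Dbp, singled out after its values were seen, had 5.69, 80.8, 3.77 and 41.7 TPM in CMV-GE11-siRE kidneys, 57.0, 69.6, 129 and 74.5 TPM in CMV-siRE kidneys, and 3.82, 3.87, 7.19 and 5.18 TPM in CMV-scrR kidneys, and was thus high in the same libraries in which the 3 chains were low. With Dbp as a covariate, an alternative chosen after seeing the data, the differences with CMV-siRE were 0.51 ± 0.60, -0.14 ± 0.25 and 0.25 ± 0.50. Dbp was higher in every CMV-siRE library than in every control, so this fit cannot separate Dbp from circuit. The podocyte markers, from the cells that secrete these chains in the glomerulus, summed to 593, 388, 559 and 392 TPM in CMV-GE11-siRE kidneys, 420.5, 413, 386 and 456 TPM in CMV-siRE kidneys, and 567, 576, 608 and 589 TPM in CMV-scrR kidneys. The part of the podocyte markers in the difference was not tested.

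**Figure D5:**
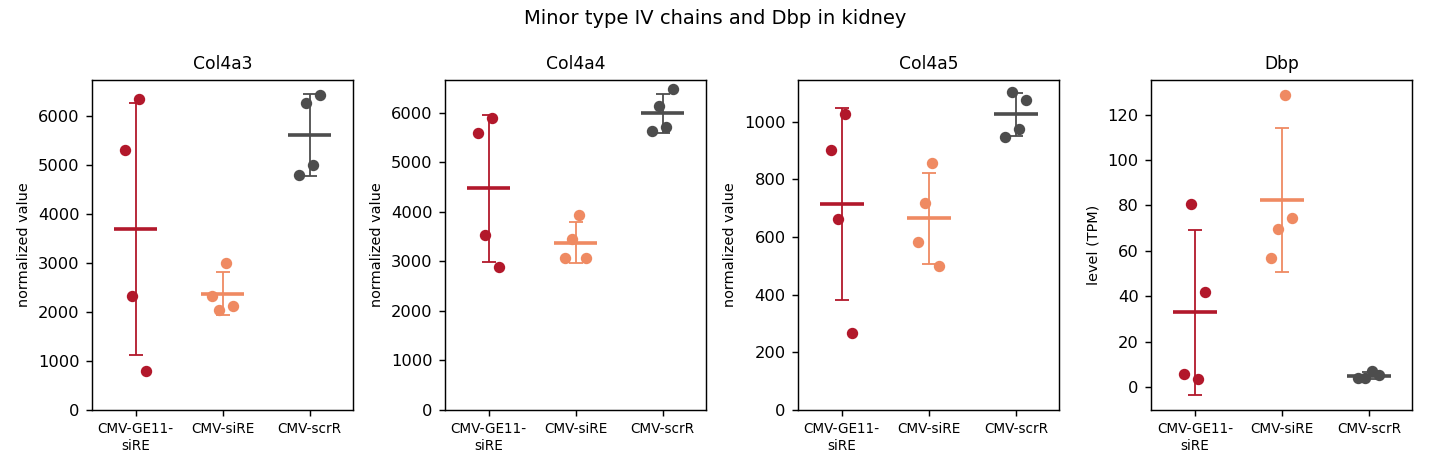
Normalized value of Col4a3, Col4a4 and Col4a5 and level of Dbp (TPM) in each kidney library (points) by circuit, CMV-GE11-siRE at the left, with mean (bar) and SD (error bar, n = 4). The CMV-GE11-siRE libraries fall into a high and a low pair, with Col4a3 at 5305 and 6332 against 2313 and 786, and Dbp runs the opposite way.

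In lung, which had the highest level of 19 of the 44 collagens, no member passed. Limma called 0 of 38 between CMV-GE11-siRE and CMV-scrR (0 at an unadjusted p under 0.05), against 0% of all genes called and 7.9% unadjusted. Between CMV-siRE and CMV-scrR it called 0 of 38 (7 unadjusted), against 1.41% and 17.6%, and between CMV-GE11-siRE and CMV-siRE 0 of 38 (3 unadjusted), against 0.0619% and 9.97%. The summed collagen level was 3103 ± 816 TPM in CMV-GE11-siRE lungs, 2737 ± 355 TPM in CMV-siRE lungs and 3194 ± 568 TPM in CMV-scrR lungs (SD, n = 4). Col13a1 was 1602 ± 110 in CMV-siRE and 1955 ± 44.2 in CMV-scrR lungs (-0.29 ± 0.09, adjusted p = 0.104) and Col15a1 was 764 ± 182 and 442 ± 114 (0.79 ± 0.25, adjusted p = 0.114), and neither overlapped. Col4a4 was 3104 ± 710.1 and 4504 ± 672 (-0.55 ± 0.16, adjusted p = 0.0895). Of 14 degradation genes tested with CMV-siRE, Timp1 rose (1.43) and Mrc2, a collagen uptake receptor, fell (-0.59). Of 14 fibril-associated matrix genes, Prelp fell (-0.78). No gene of the other lists passed, and 1.41% of all genes were called.

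In thymus, limma called 0 of 36 members between CMV-GE11-siRE and CMV-scrR (1 at an unadjusted p under 0.05), 0 between CMV-siRE and CMV-scrR (4) and 0 between CMV-GE11-siRE and CMV-siRE (6), against 0%, 0.00609% and 0% of all genes called and 9.44%, 5.65% and 2.81% unadjusted. Col5a3, a chain of type V collagen, had 226, 108, 206 and 107.5 in CMV-GE11-siRE thymi, 73.4, 88.3, 78.6 and 101 in CMV-siRE thymi, and 201, 182, 212 and 249 in CMV-scrR thymi. All 4 CMV-siRE libraries lay below the controls, with a difference of -1.30 ± 0.25 (adjusted p = 0.417). Without CMV-GE11-siRE replicate 4, the library of low mitochondrial share, the adjusted p was 0.00532, and Col12a1 (606 in CMV-siRE and 302 in CMV-scrR thymi, 0.92 ± 0.31) passed as well. The share of all genes called without that library is not given here. With the 8 compared libraries alone, 2 of 36 members and 1673 of 16421 genes were called, against 0 members and 1 gene with all 12 libraries. Of the 7 lists of matrix genes, none had a gene that passed in kidney or thymus.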

How the data were processed

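RNA of 6 tissues was sequenced in 72 libraries, 4 per tissue and circuit. The authors deposited, for each tissue, a table of signal values, which are gene counts divided by size factors, per the labels and the values themselves. The submitters' processing notes name DESeq2 without a version or role. Aligner, counting tool, genome build and annotation: not given in the sources used here. Gene identifiers carried GENCODE M21 versions. Of a library's low values (up to 20 steps of its most frequent value under 5), 50.3 to 72.6% were within 0.1 step of a whole multiple of that step, so read counts were not recovered and the count test that had been planned was not used. The step put depth at about 12.2 to 20.9 M reads.

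Log2(value + 1) was fitted with limma 3.58.1 (limma-trend) in R 4.3.3, with 1 mean per circuit over the 12 libraries of a tissue. Genes of at least 10 in at least 4 libraries were tested, and the Benjamini-Hochberg adjustment ran over all of them in each of 18 comparisons. No 2 libraries of a tissue were identical. Levels between genes were divided by the union of exon lengths (TPM, Python 3.11.15, pandas 2.3.3). On simulated data with 200 changed genes for CMV-GE11-siRE against CMV-scrR, the fit called 20% of 1-log2 and 61% of 2-log2 changes in tumour (14044 genes). In the organs it called 48 to 71% of 1-log2 and 73 to 93% of 2-log2 changes.

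The members, gene lists and tests were chosen with earlier results of these data known. The text names all members that passed, the 5 leading chains of each tissue, the chains of preset ratios, members at 0 throughout a tissue, and up to 3 passing genes of each matrix list with the largest difference. Other members are named by class or as described after their values were seen. Alternatives were a pseudocount of 0.1, no filter, only the 8 libraries compared, a replicate block, 2 other scalings, the mitochondrial share as a covariate, and leaving out each library. Covariates Dbp in kidney and Ddx3y in tumour were added after seeing the data. Replicate numbers were not used as pairs in the main fit. Of 72 correlations of same-numbered deviations between circuits within a tissue, 10 were over 0.1 (range -0.28 to 0.27). Whether same-numbered libraries of different tissues came from the same animal was not examined.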

Additional observations from a re-analysis of the deposited data

Results flagged for a closer look

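Among 138 groups of 4 libraries (leading or passing members of each tissue), 10 held a library whose gap to its nearest neighbour exceeded Dixon's critical value for 4 libraries, and chance gives about 1 in 20 groups. In tumour these were Col11a2 at 42.7 in CMV-scrR replicate 1 (others 4.56 to 8.12), Col7a1 at 195 in the same library (others 3.59 to 21.5), Col14a1 at 139 in CMV-scrR replicate 2 (others 77.0 to 84.8), Col26a1 at 76.1 in CMV-siRE replicate 1 (others 0.863 to 13.1) and Col26a1 at 1.60 in CMV-scrR replicate 3 (others at 0). In the organs they were Col3a1 at 3897 in liver CMV-siRE replicate 4 (others 2040.4 to 2262), Col18a1 at 8982 in kidney CMV-GE11-siRE replicate 4 (others 5782 to 6211), Col4a2 at 2291 in spleen CMV-siRE replicate 2 (others 1878 to 1917), and, in thymus CMV-GE11-siRE replicate 4, Col4a1 at 2059 (others 1276 to 1393) and Col6a2 at 2796 (others 1078 to 1303). Kidney and thymus CMV-GE11-siRE replicate 4 are the libraries of low mitochondrial share.

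In 3 cases all libraries of a circuit lay on one side of the controls in a tissue and on the other side in another. Col13a1 with CMV-siRE was higher in liver (1.08) and lower in lung (-0.29), Col20a1 with CMV-GE11-siRE was higher in tumour (2.61) and lower in thymus (-0.48), and Col27a1 with CMV-GE11-siRE was higher in tumour (2.43) and lower in kidney (-0.73). Col27a1 in kidney had 1955, 1834, 1874 and 451 with CMV-GE11-siRE and 1999, 2017, 2035 and 2825 with CMV-scrR. The lowest of these, CMV-GE11-siRE replicate 4, is the kidney library of low mitochondrial share. The difference between tissues was not tested.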

How the results depend on the processing

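Counts of collagens called, by setting. Mitochondrial share as covariate gave 0 in tumour, liver and spleen for CMV-GE11-siRE against CMV-scrR. It gave 0 in spleen and 2 in thymus (with 2817 of 16421 genes called) for CMV-siRE against CMV-scrR. In these tumour and spleen comparisons the share did not overlap between the circuits, so share and circuit cannot be told apart. Column-total scaling gave, in tumour, 23 for CMV-GE11-siRE against CMV-scrR and 25 for it against CMV-siRE. It gave 1 in spleen for CMV-siRE against CMV-scrR. The total without mitochondrial genes gave 4 in tumour for CMV-GE11-siRE against CMV-siRE and 1 in spleen for CMV-siRE against CMV-scrR. The 8 compared libraries alone gave 3 in kidney, 1 in spleen and 2 in thymus for CMV-siRE against CMV-scrR. Those fits called 1093 of 15105 genes in kidney, 656 of 16015 in spleen and 1673 of 16421 in thymus. The 8 libraries alone gave 0 in liver for CMV-GE11-siRE against CMV-scrR, where keeping low genes also gave 0. The replicate block gave 1 in spleen for CMV-siRE against CMV-scrR, and kept the other counts within 1.5 times (12 in tumour for CMV-GE11-siRE against CMV-scrR). Ddx3y as covariate gave 2 in tumour for CMV-siRE against CMV-scrR. Leaving out each library gave, in tumour, 0 to 3 for CMV-siRE against CMV-scrR, 9 to 14 for CMV-GE11-siRE against CMV-scrR and 0 to 5 for CMV-GE11-siRE against CMV-siRE. It gave 0 to 1 in liver for both circuits against CMV-scrR, 0 to 6 and 1 to 9 in spleen for CMV-siRE and CMV-GE11-siRE against CMV-scrR, and 0 to 2 in thymus for CMV-siRE against CMV-scrR. For the fits with the replicate block, with Ddx3y or without a library, the shares of all genes called are not given here. Of the single members that passed, 293 values under alternatives kept direction and call, 73 kept direction only and 8 reversed. Those 8 were in tumour for CMV-GE11-siRE against CMV-scrR, namely Col20a1 (-0.50), Col7a1 (-0.53), Col16a1 (-0.22), Col27a1 (-0.58) and Col8a1 (0.89) with the covariate, and Col14a1 (0.40), Col12a1 (0.58) and Col8a1 (0.053) by column total. The cause was not tested. Read counts were not available, so intervals from counting error cannot be given, and values under about 10 are the least certain.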
